A study of Mus musculus with 25 samples.

Results

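The regions described here are 479 peaks of open chromatin in mK4 cells, a line of mouse embryonic kidney mesenchyme, that the authors listed as dependent on Notch and that were marked by some but not all of the mapped Notch1 (N1) complexes. They were chosen by overlap of at least 1 bp between each of the 2396 Notch-dependent peaks on chromosomes 1 to 19 and X and the deposited lists of sites of 6 protein pairs. A peak was taken if regions of 1 to 3 of the 4 N1 lists (N1/RBP, N1/MAML, N1/p300 and N1/N1) met it and no region of either Mef2c list (Mef2c/MAML and Mef2c/p300) did. The 479 peaks are 20.0% of the 2396. Because the lists themselves chose the peaks, the list counts and scores below describe the choice and carry no test.

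Open chromatin was mapped by FAIRE, which recovers nucleosome-poor DNA from cross-linked nuclei, in 3 libraries labelled N1wt, with 3 control libraries and 1 N1wt input. Protein pairs were mapped by split DamID (SpDamID), in which the bacterial methylase Dam is cut into inactive parts and a GATC site is marked where both parts meet. In each pair the first protein carries the part labelled D and the second the part labelled AM joined to Ert2, a form of the estrogen receptor's ligand-binding domain used to control fusion proteins with a drug; the labels used here name no drug or time. N1/N1 had 2 libraries, the 3 other N1 pairs 3 each and the Mef2c pairs 1 each, and there were 3 of Dam alone, which is the control of all 6 lists. N1 was also mapped by ChIP of a myc tag, in 1 library against 1 input. The strain label is CD1 except for 1 N1/N1 library (CD2) and the Mef2c/MAML library (CD3). No list gives a value per library, so no value below has a replicate error, and the depth of the libraries is unknown. Markers of kidney mesenchyme could not be set against the cell line's label, since no expression was measured.

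Notch1 is a receptor whose intracellular part is cut free on ligand binding and moves to the nucleus. There it joins RBP, the DNA-binding protein of the pathway, and MAML, a co-activator that bridges the complex to the acetyltransferase p300. On some paired sites a pair of these complexes binds cooperatively through contacts between the N1 parts, and N1/N1 was used to read out such pairs. Mef2c is a MADS-box transcription factor that can also recruit MAML and p300. A FAIRE peak with an N1 pair but no Mef2c pair is thus one where RBP, a co-activator or another N1 was recorded next to N1, and neither co-activator next to Mef2c.

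All 14 possible combinations of 1 to 3 N1 lists occurred among the 479 peaks. Most peaks lay in a single list: 264 of them, or 55.1% (exact Clopper-Pearson 95% interval 50.5 to 59.6%, which like all intervals here covers counting error only), while 119 lay in 2 lists and 96 in 3. The Notch-dependent peaks that met the same 1 to 3 N1 lists and also a Mef2c region, 580 in number, had the opposite order, with 132 (22.8%) in 1 list, 191 in 2 and 257 (44.3%) in 3. Peaks without Mef2c therefore made up a smaller part of the Notch-dependent peaks with each added N1 partner. They were 66.7% of the 396 peaks with 1 partner, 38.4% of the 310 with 2, 27.2% of the 353 with 3, and 25 of the 490 (5.10%) with all 4, which fall outside the rule. Of the 580 peaks set aside for Mef2c, 497 met Mef2c/MAML and 296 met Mef2c/p300, so 284 were set aside by the single Mef2c/MAML library alone. In all Notch-dependent peaks Mef2c/MAML held 43.4% and Mef2c/p300 held 26.3%.

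N1/N1, the readout of N1 next to N1, was the most frequent partner. It held 304 of the 479 peaks, or 63.5% (59.0 to 67.8%), against 65.2% of the 580 peaks with Mef2c, close to the same share, and 48.9% of all Notch-dependent peaks. N1/RBP, the core pair of the pathway, held 229 (47.8%), against 68.3% with Mef2c and 46.5% of all. N1/p300 held 190 (39.7%), against 65.3% and 44.2%. N1/MAML held 67 (14.0%, 11.0 to 17.4%), against 22.8% and 28.8%. The shares of RBP, p300 and MAML were thus lower without Mef2c than with it. Peaks with Mef2c, however, more often lay in 3 N1 lists (44.3% against 20.0%), and a peak in more lists counts towards more of these shares. Whether a share differs at a given number of partners was not tested. The order of the 4 partners is also the order of list size. N1/N1 has 31938 regions, N1/RBP 28281, N1/p300 22360 and N1/MAML 16547, so the ranking is not read as a trait of these peaks. Nothing is read from the shares in all Notch-dependent peaks, since the rule takes out both the 847 peaks in no N1 list and the 490 in all 4. The MAML share also depends on the single Mef2c/MAML library: with Mef2c/p300 alone used to set peaks aside, N1/MAML held 169 of 763 peaks (22.1%, 19.2 to 25.3%).

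The commonest combination was N1/N1 with no other partner, at 129 peaks or 26.9% of the 479, against 41 peaks or 7.07% of the 580 with Mef2c. Next came N1/RBP with N1/p300 and N1/N1 but without N1/MAML, at 77 peaks (16.1%), against 184 (31.7%) with Mef2c. N1/RBP with N1/N1 and neither co-activator followed at 63 peaks (13.2%), against 70 (12.1%). N1/p300 alone had 53 peaks, N1/RBP alone 51 and N1/MAML alone 31. Every other combination held 21 peaks or fewer. The 6 combinations of MAML with another partner together held 36 peaks, between 4 and 9 each, or 7.52% of the 479; with Mef2c/p300 alone used to set peaks aside they held 123 of 763 (16.1%). Of the peaks with 3 partners, 77 of 96 lacked MAML and no other list.

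**Figure D1:**
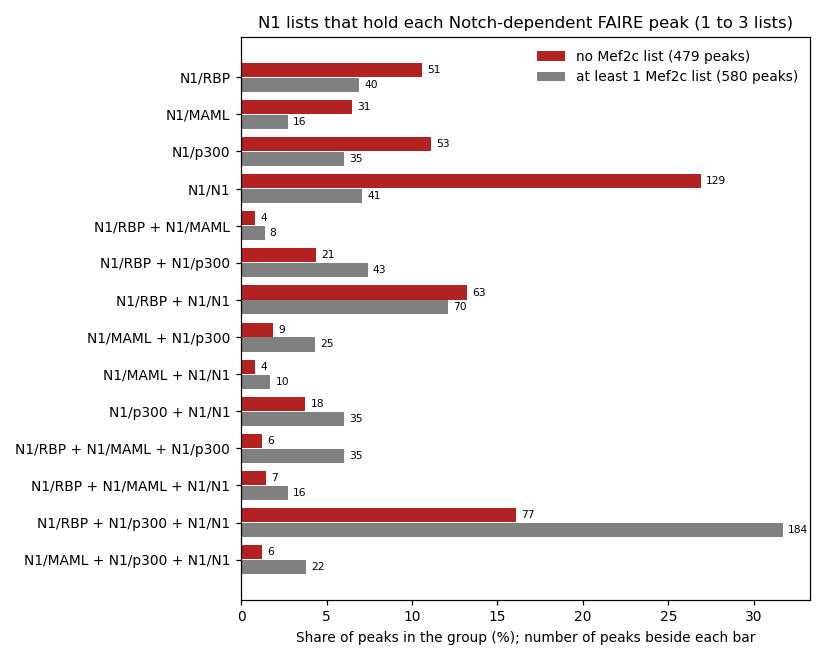
Share of peaks (x axis, percent) in each of the 14 combinations of N1 lists (y axis), for the 479 Notch-dependent FAIRE peaks with no Mef2c list (upper, red bars) and the 580 with at least 1 Mef2c list (lower, grey bars); the number of peaks stands beside each bar. N1/N1 alone is the longest red bar at 129 peaks, and N1/RBP with N1/p300 and N1/N1 is the longest grey bar at 184.

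Most of the 479 peaks lay on a single N1 fragment. The 6 lists draw on a common map of DNA fragments, with 0 partial overlaps among their distinct fragments, so fragments can be counted across lists. A single N1 fragment marked 413 of the 479 peaks (86.2%), against 372 of 580 (64.1%) with Mef2c, and no peak of the 479 had more than 3. A smaller part of the 580 had 1 partner, so the groups also differ in partner number. With 2 or 3 partners, 250 of 448 peaks with Mef2c had 1 fragment. Of the 215 such peaks without Mef2c, 160 had 1 fragment, which all their lists then share. Of the other 55, 35 had a fragment in every one of their lists (63.6%, 49.6 to 76.2%), against 141 of 198 such peaks with Mef2c (71.2%, 64.4 to 77.4%). In the remaining 20 of the 55, no fragment was in all lists of the peak. The lists come from separate libraries, so a shared fragment does not show that partners were there together. N1 fragments covered a median of 79.7% of the bases of a peak, against 66.9% with Mef2c.

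The fragments on these peaks were long. They had a median of 1037 bp over 545 distinct fragments, ranging between 223 and 4973 bp. Per peak the median fragment length was 1065 bp, against 664 bp in the 580 peaks with Mef2c. The Mef2c/MAML list, which set aside most peaks, holds few fragments of this length: its median is 486 bp, its 95th percentile 786 bp, and 0.435% of its 50381 regions are longer than 1000 bp, against 5.96% of the Mef2c/p300 regions. In 323 of the 479 peaks (67.4%, 63.0 to 71.6%) every N1 fragment was longer than 786 bp, against 143 of 580 (24.7%, 21.2 to 28.4%) with Mef2c. The peaks in all 4 N1 lists without Mef2c had 6 of 25 (24.0%).

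Length also differed among the combinations. Peaks in N1/N1 alone had a median fragment of 1490 bp, those in N1/MAML alone 2168 bp, those in N1/RBP with N1/N1 1153 bp, those in N1/RBP alone 889 bp and those in N1/p300 alone 598 bp. Long regions are also more frequent in the N1/N1 and N1/MAML lists as a whole. Of all N1/N1 regions 31.0% exceed 1000 bp, and of all N1/MAML regions 23.4%, against 15.3% for N1/RBP and 8.69% for N1/p300. Regions over 2000 bp make up 15.7% of N1/MAML. By median, however, N1/MAML regions are the shortest at 517 bp, against 566 bp for N1/p300, 667 bp for N1/RBP and 754 bp for N1/N1. Partner combination and fragment length therefore move together in these lists. As an alternative chosen after the data were seen, only SpDamID regions of 400 to 800 bp were kept in all 6 lists. Of the peaks with 1 to 3 N1 lists, 159 of 529 then lacked Mef2c (30.1%, 26.2 to 34.2%), against 479 of 1059 (45.2%, 42.2 to 48.3%) with regions of every length. By number of partners, 92 of 196 with 1 lacked it (46.9%), 37 of 150 with 2 (24.7%), 30 of 183 with 3 (16.4%) and 18 of 350 with 4 (5.14%), so the share without Mef2c was again lower with each added partner, although the 95% intervals with 2 and 3 partners overlap. This left 159 peaks under the same rule, of which 128 are among the 479. N1/N1 alone then held 20 of the 159 peaks (12.6%) and N1/MAML alone 2 (1.26%), while N1/p300 alone held 47 (29.6%) and was the commonest combination. The length limit bears unequally on the combinations. Only fragments over 786 bp lay on 118 of the 129 peaks in N1/N1 alone, against 7 of the 53 in N1/p300 alone. The limit can also move a peak to another combination, and its part in this order was not tested. The split by number of partners moved less: 57.9% of the 159 peaks had 1 partner, 23.3% had 2 and 18.9% had 3.

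**Figure D2:**
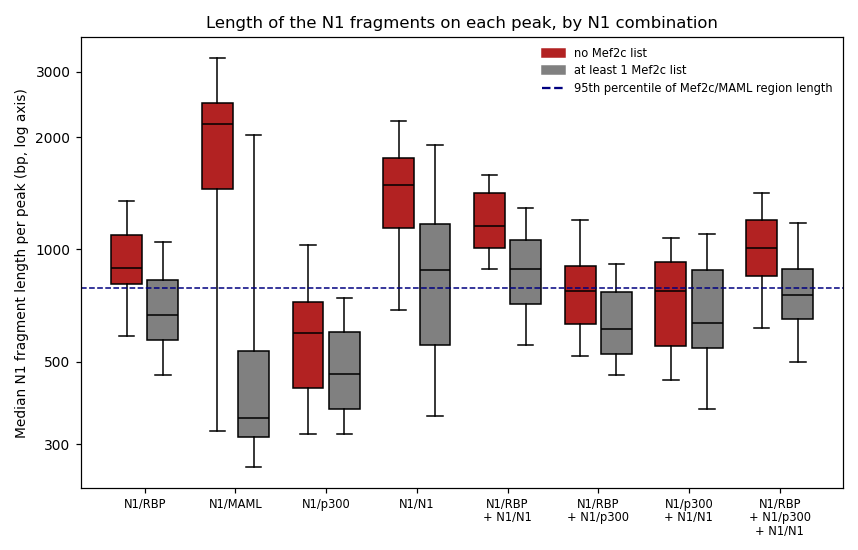
Median length of the N1 fragments on each peak (y axis, bp, log scale) for 8 N1 combinations (x axis), in peaks with no Mef2c list (left, red) and with at least 1 Mef2c list (right, grey); boxes span the quartiles, the line in a box is the median and whiskers reach the 5th and 95th percentiles. The dashed line marks 786 bp, the 95th percentile of region length in the Mef2c/MAML list; the red medians of N1/N1 alone (1490 bp) and N1/MAML alone (2168 bp) lie far above it, and that of N1/p300 alone (598 bp) below.

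The deposited score over Dam, a whole number with no stated scale, was moderate on these peaks. For each peak the highest score in a list was used. For N1/RBP it ran between 6 and 654 with a median of 349 over 229 peaks, against a median of 444 over all 1115 Notch-dependent peaks in that list and 332 over the list as a whole. The N1/MAML median was 333 over 67 peaks, against 502 in all Notch-dependent peaks and 366 in the list. The N1/p300 median was 341 over 190 peaks, against 484 and 342. The N1/N1 median was 328 over 304 peaks, against 407 and 285. In all 4 lists the median of the 479 peaks was thus below that of Notch-dependent peaks as a whole, which include the peaks in all 4 lists. The 25 peaks in all 4 lists without Mef2c had medians of 457 for N1/N1, 546 for N1/RBP, 568 for N1/p300 and 423 for N1/MAML.

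The medians of N1/RBP and N1/p300 were ordered by the number of partners, as a description of values the rule used. The N1/RBP median was 257 in peaks with that list alone, 324 with 1 further partner and 422 with 2. For N1/p300 the medians were 261, 316 and 385. For N1/N1 the medians with 0 and 1 further partner were close, 282 and 281, and that with 2 was 454. Peaks with more partners held more fragments, which can raise a highest score: 95.8% of peaks with 1 partner had a single fragment, against 80.7% with 2 and 66.7% with 3. In peaks with a single fragment the N1/RBP medians were 255, 323 and 420, the N1/p300 medians 260, 354 and 400 and the N1/N1 medians 282, 286 and 433, for 1, 2 and 3 partners. N1/MAML showed no such order, with medians of 285, 395 and 284 over 31, 17 and 19 peaks. Between lists the scores of a peak went together only loosely: Pearson's r over the peaks in both lists ran between 0.029 (N1/MAML with N1/p300, 21 peaks) and 0.36 (N1/MAML with N1/N1, 17 peaks), and all lists share the Dam control.

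**Figure D3:**
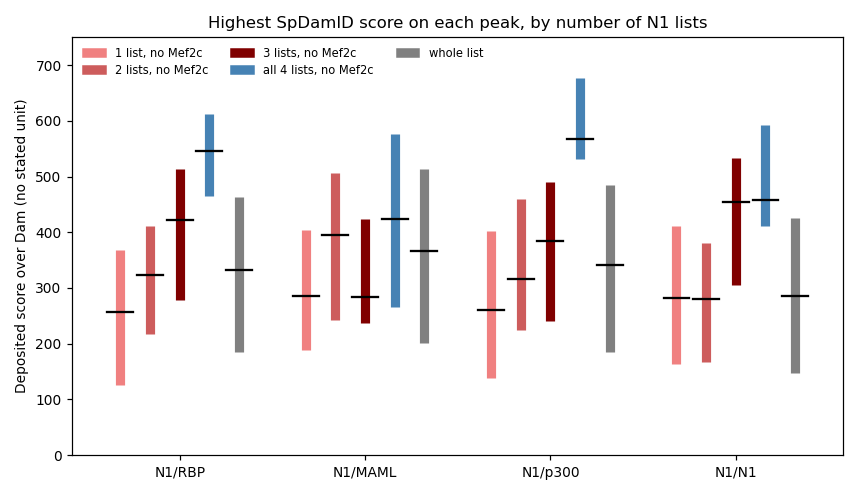
Highest deposited SpDamID score on each peak (y axis, no stated unit) in each N1 list (x axis), for Notch-dependent peaks without Mef2c in 1, 2 or 3 N1 lists (light to dark red), in all 4 (blue) and for the whole list (grey); bars span the quartiles and black lines are medians. The N1/RBP medians are 257, 324 and 422 for 1, 2 and 3 lists and 546 for all 4, against 332 in the whole list.

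Of the 96 peaks with 3 partners, 77 had the combination of N1/RBP, N1/p300 and N1/N1, so its lead below is not read as a trait. The 10 with the highest scores, ranked by the mean percentile of their scores within each list, all had this combination. The first was on chromosome 3 (build mm9) from 137953570 to 137954263, with scores of 562 for N1/RBP, 650 for N1/p300 and 636 for N1/N1 on 1 fragment and a mean percentile of 95.6. The second, on chromosome 16 from 22919834 to 22920867, had scores of 566, 683 and 561 in the same order. The third, on chromosome 11 from 80761227 to 80763494, had the highest N1/N1 score of all 479 peaks, 700, with 523 for N1/RBP and 627 for N1/p300. The fourth, on chromosome 13 from 52770739 to 52772716, had the highest N1/RBP score, 654. The other 6 of the leading 10 were 3 peaks on chromosome 8 and 1 each on chromosomes 1, 11 and 15, with mean percentiles between 84.2 and 91.2. The nearest Mef2c region of the first 3 lay 14991, 5733 and 33488 bp away. In contrast, 1 of the 10, on chromosome 8 from 37227801 to 37228457, lay 15 bp from one and narrowly met the rule.

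N1/N1 was in 85 of the 119 peaks with 2 partners, so its place among the leading peaks is not read as a trait. The 5 of the 119 with the highest mean percentile all held N1/N1, 3 with N1/RBP and 2 with N1/p300. The first, on chromosome 3 from 95529621 to 95531280, had an N1/N1 score of 650 and an N1/RBP score of 496. Of the peaks with N1/N1 alone, the highest scores were 640 on chromosome 19 from 11539127 to 11539893 and 629 on chromosome 10 from 39983054 to 39984681, both above the 97th percentile of the list. N1/p300 alone reached 602 on chromosome 8 from 124534384 to 124534993 and N1/MAML alone 599 on chromosome 19 from 10322655 to 10323025. N1/RBP alone reached 491 on chromosome 7 from 19901860 to 19902697. Single-partner peaks thus included sites with scores well into the upper part of a list.

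As FAIRE peaks, they were close to the Notch-dependent list in score and length. Their MACS score had a median of 137 (quartiles 94.3 and 200, range 50.78 to 586.75), against 132 for all 2396 and 116 for the 738 peaks in no SpDamID list. Their median length was 818 bp, against 816 bp for all and 720 bp for those in no list. Of the 479, 456 (95.2%) were also in the total FAIRE list, each with the same ends, against 94.7% of all Notch-dependent peaks. In these 456 the median score was 188 in the total list and 140 in the Notch-dependent list. By number of partners, the median FAIRE score was 131 with 1, 138 with 2 and 149 with 3, and the median length 796, 840 and 890 bp, so peaks with more partners were somewhat longer and longer peaks can meet more fragments.

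The share of peaks that met the rule hardly varied with peak length, although both neighbouring classes did. It was 19.7% in the shortest quartile of Notch-dependent peaks, 19.2% in the second, 22.6% in the third and 18.4% in the longest, with overlapping intervals. Over the same quartiles the share in a Mef2c list was 34.1, 40.7, 51.2 and 66.7%, and the share in no SpDamID list was 45.1, 39.4, 25.0 and 13.7%. By quartile of FAIRE score the share meeting the rule was 17.4, 20.6, 21.3 and 20.7%.

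**Figure D4:**
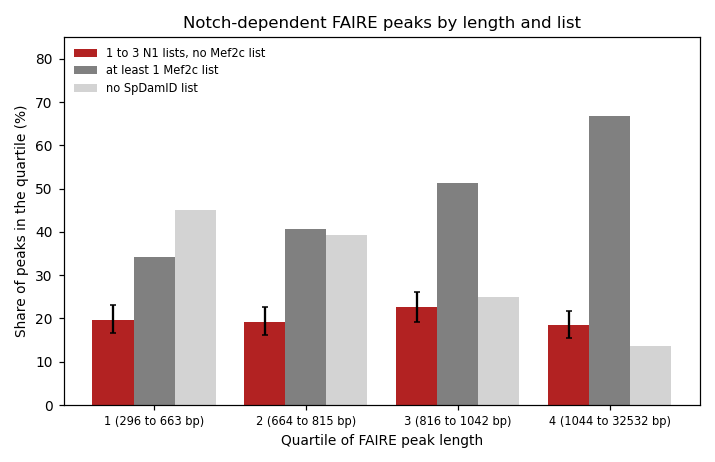
Share of Notch-dependent FAIRE peaks (y axis, percent) with 1 to 3 N1 lists and no Mef2c list (red, with exact 95% binomial intervals), with at least 1 Mef2c list (dark grey) and in no SpDamID list (light grey), by quartile of peak length (x axis); peaks in all 4 N1 lists without Mef2c are not drawn. The red share stays between 18.4 and 22.6% while the Mef2c share runs between 34.1 and 66.7%.

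The 10 peaks with the highest FAIRE scores had between 1 and 3 partners. The highest, 586.75, was on chromosome 19 from 23208365 to 23211628, the longest of the 479 at 3264 bp, with N1/RBP at 513, N1/MAML at 424 and N1/p300 at 138 but no N1/N1. It was followed by N1/p300 alone on chromosome 14 from 76678361 to 76679741 (FAIRE score 562.89, N1/p300 score 533) and on chromosome 16 from 57391121 to 57391982 (523.84 and 351). The fourth, on chromosome 1 from 193101300 to 193102318, had a FAIRE score of 522.6 but lay in N1/N1 alone with a score of 73. FAIRE scores of the other 6 ran between 454.13 and 515.39. A high FAIRE score thus stood beside a low SpDamID score on the fourth peak.

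N1 ChIP, which the rule did not use, met 11 of the 479 peaks, 2.30% (1.15 to 4.07%). The share was 3.21% in all 2396 Notch-dependent peaks, 2.07% (1.07 to 3.59%) in the 580 with Mef2c, 2 of 25 (8.00%, 0.984 to 26.0%) in those of all 4 N1 lists without Mef2c, 5.16% (3.33 to 7.58%) in the 465 of all 4 N1 lists with Mef2c, and 3.25% (2.09 to 4.80%) in those of no list. The interval of the 479 overlaps each of these, by least for the 465. Overlapping intervals do not show that shares are equal, and the differences from these classes were not tested. The other total FAIRE peaks, which meet no Notch-dependent peak, had 3514 of 17083 (20.6%, 20.0 to 21.2%), well above, with a median length of 915 bp. By number of partners 6 of 264, 1 of 119 and 4 of 96 peaks met ChIP, with intervals of 0.839 to 4.88%, 0.0213 to 4.59% and 1.15 to 10.3%.

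The ChIP regions on these peaks were mostly short. Their median length was 57.0 bp, taking the region with the highest ratio on each peak, against 137 bp in the whole ChIP list, and the ratio of ChIP to input ran between 12.2 and 27.3 with a median of 16.2. The input was at its fixed value of 0.100 in all 11, so these ratios follow the ChIP signal alone. The highest ratio, 27.3, was on chromosome 8 from 74205044 to 74206052, in N1/N1 alone with a score of 316. The second, 26.9, was on the chromosome 19 peak with the highest FAIRE score described above, over 752 bp. The peak on chromosome 3 from 108226500 to 108228313, with N1/RBP at 513, N1/p300 at 229 and N1/N1 at 453, had a ratio of 15.8 and is the 1 peak whose ChIP region has the same ends as an N1 fragment. The other ratios were 20.0 and 19.8 for peaks on chromosome 11, in N1/MAML alone and N1/RBP alone, 17.3 and 16.2 on chromosome 2, 14.0 on chromosome 11, 14.0 and 13.6 on chromosome 19 and 12.2 on chromosome 18. These 11 peaks had 7 different partner combinations.

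**Figure D5:**
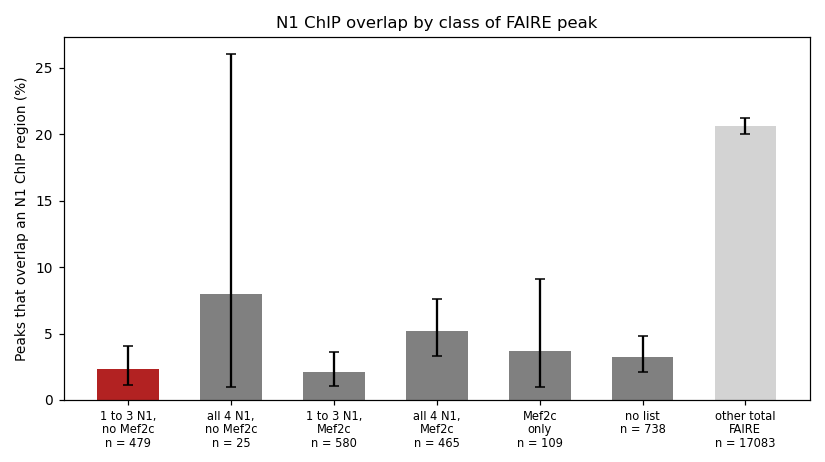
Share of FAIRE peaks that overlap an N1 ChIP region (y axis, percent, with exact 95% binomial intervals) in the 479 peaks with 1 to 3 N1 lists and no Mef2c list (red), in the other classes of Notch-dependent peaks (dark grey) and in other total FAIRE peaks (light grey). The red bar stands at 2.30% and the bar of other total FAIRE peaks at 20.6%.

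Some of the 479 peaks had a Mef2c region close by. The nearest Mef2c region lay a median of 5962 bp from the 479 peaks (quartiles 1410 and 15977 bp), against 3665 bp for the 25 peaks of all 4 N1 lists and 8262 bp for the 738 peaks in no list. Within 1000 bp there was a Mef2c region at 95 of the 479 (19.8%, 16.4 to 23.7%), against 4 of 25 (16.0%) and 124 of 738 (16.8%, 14.2 to 19.7%). Within 100 bp there was one at 19 (3.97%). Most peaks had no region of a missing N1 partner within 1000 bp. The same shares were not taken for other peaks, so these are not called low or high. An N1/MAML region lay within 1000 bp of 20 of the 412 peaks that lacked it (4.85%), an N1/RBP region of 25 of 250, an N1/p300 region of 31 of 289 (10.7%) and an N1/N1 region of 24 of 175 (13.7%). For the 77 peaks that lacked MAML alone, the nearest N1/MAML region was a median of 16919 bp away, and 4 had one within 1000 bp. Of the 6 that lacked N1/RBP alone, 2 had an N1/RBP region that near. The 7 that lacked N1/p300 alone and the 6 that lacked N1/N1 alone had 0.

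The edges of the rule were narrow for a few peaks. The largest overlap with an N1 region had a median of 573 bp and was under 50 bp in 11 peaks. The smallest was 2 bp, on chromosome 17 from 56345554 to 56346519, while a peak in no list on chromosome 7 from 149003362 to 149003958 missed an N1 region by 2 bp. The peak nearest to a Mef2c region, on chromosome 19 from 55788191 to 55789036 with N1/RBP alone, was 2 bp away. Just outside, a peak with N1/p300 on chromosome 10 from 66950072 to 66950818 was set aside for 1 bp of Mef2c overlap.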

How the data were processed

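The 9 deposited lists of regions were used, each pooling its libraries. Per the file headers, the authors scored each SpDamID region against Dam, with a confidence level of 0.999 or more, and called FAIRE peaks with MACS in Galaxy, which gave the deposited peak score. How the authors selected Notch-dependent peaks, and which aligner they used, is not stated in these sources. The deposited ChIP table has a signal for ChIP and for input and their ratio (columns without a header, read from the quotient, which holds within a relative error of 4.79e-10). The word median stands in the headers of 3 N1 lists, all but N1/N1. Short list names were matched to protein pairs by their initials. Coordinates are of mm9 per the submitters' processing notes; an mm9 genome or annotation was not used here, so no gene names or sequences are given.

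FAIRE starts were raised by 1, giving 1-based positions with both ends included, and 7 Notch-dependent peaks on other contigs were left out. Overlaps, medians and exact Clopper-Pearson intervals were computed in Python 3.11.15 with numpy 2.4.6, pandas 2.3.3 and scipy 1.17.1, and figures drawn with matplotlib 3.10.9; the overlap code was tested on simulated data. No test was run, since lists pool their libraries and regions are not replicates. The members and all comparisons were chosen with earlier results of these data known. Named regions are the 10 highest by FAIRE score, the 10, 5 and 2 highest by SpDamID score in 3 lists, 2 lists and each list alone, all that meet ChIP (if 15 or fewer), and the edges of the rule. Alternatives changed the overlap, the score and length of regions and the Mef2c lists used.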

Additional observations from a re-analysis of the deposited data

How the results depend on the processing

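No paired analysis was possible because the lists pool their libraries and hold no value per library; leaving out a library of a list with several was not possible for the same reason. Of 161 alternative values for the counts, shares and medians, 128 stayed within the range taken as unchanged (1.5 times for a count, the 95% interval otherwise) and 33 did not. With N1 regions from their list's median score and every Mef2c region, 296 peaks remained under the rule, 73 with 2 partners and 40 with 3, of median length 858 bp, and median scores were 451 (N1/N1), 450 (N1/RBP), 488 (N1/p300) and 474 (N1/MAML). With all 6 lists limited so, the scores were 444, 457, 492 and 482 and the length 856 bp. With FAIRE peaks from the median score there were 252 peaks, 131, 64 and 57 with 1, 2 and 3 partners, 98.4% in total FAIRE, with a median score of 195 and length of 907 bp; fewer peaks entered. With Mef2c/p300 alone used to set peaks aside, which leaves out the library with the CD3 label, there were 763 peaks, 221 with 2 partners and 202 with 3. With SpDamID regions of 400 to 800 bp, added after the data were seen, there were 159 peaks, 92, 37 and 30 by number of partners, with a median FAIRE score of 129, a length of 796 bp and an N1/N1 score of 282. By the peak's centre the median length was 861 bp. ChIP held 0.626% of the peaks with ChIP regions of at least 300 bp and 4.59% with regions within 500 bp counted. Of 168 alternative counts of combinations, 47 moved by more than 1.5 times. With N1/N1 left out, also added later, 344 peaks lay in 1 (220) or 2 (124) of the 3 other N1 lists. No value compared moved past these limits, but counts of partners out of 3 lists are unlike those out of 4. Peaks with 3 partners and the combinations were not compared in this setting. The scores of peaks with 1 N1 fragment, added later too, also stayed within the limits. Depth per library is unknown and limits every statement that a partner was absent.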

Other observations

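The 479 peaks lay on all 20 chromosomes used, and their share of the Notch-dependent peaks varied among chromosomes. Chromosome 8 had 54 of them, 29.5% of its 183 Notch-dependent peaks (exact 95% interval 23.0 to 36.7%), against 20.0% (18.4 to 21.7%) over all chromosomes. Next were chromosome 19 with 33 of 128 (25.8%, 18.5 to 34.3%) and chromosome 9 with 25 of 98 (25.5%, 17.2 to 35.3%). The lowest shares were 12 of 95 (12.6%, 6.70 to 21.0%) on chromosome 17 and 3 of 23 (13.0%, 2.78 to 33.6%) on the X chromosome. Of the 20 chromosomes, only chromosome 8 had an interval that left out 20.0%. Chromosome 8 was singled out after its value was seen, and its share was not tested. Notch-dependent peaks as a whole numbered 14.8 per 100 total FAIRE peaks on chromosome 8, against 12.4 over all chromosomes, and between 6.30 on X and 16.6 on chromosome 3.

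The peaks were scattered. The nearest other peak of the 479 lay a median of 849053 bp away, and 76 (15.9%) had another within 50000 bp. At that spacing 2 stretches held 3 peaks each. On chromosome 19, from 22990033 to 23036199, all 3 peaks held N1/RBP, joined by N1/MAML, N1/p300 or N1/N1 in 1 peak each. On chromosome 2, from 160047333 to 160090641, all 3 held N1/p300, and 2 of them N1/N1 as well. Neither stretch included a peak with 3 partners.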
